A study of Mus musculus with 59 samples.

Results

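The genes described here encode inhibitors of the kinase complex mTORC1, namely Ddit4 and Ddit4l, the sestrins Sesn1, Sesn2 and Sesn3, and Deptor. They are a list of gene names, chosen with earlier results of these data known, and all 6 were found among the 55341 genes listed in each of 3 count tables. In brown adipose tissue (BAT), Sesn3 was the member with the most responses: its level was lower 6, 12 and 24 h after thyroid hormone (TH) in wild-type mice, in the cold in both genotypes, and on a high-fat diet in control mice. Deptor was 2.49-fold higher 24 h after TH in wild-type mice, and this response differed between wild-type and BATKO mice of the TH experiment. Sesn1 was lower in the cold in control mice. Ddit4l varied strongly between mice of the same group, together with the summed level of skeletal muscle markers.

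RNA was measured in BAT of 59 male C57BL/6J mice aged 8 to 12 weeks, with 1 library per mouse, in 3 experiments. In the TH experiment, all 30 mice received propylthiouracil (PTU), which blocks the synthesis of TH. Of these, 4 wild-type (WT) and 5 BATKO mice were PTU-only controls, 4 WT mice each were taken 3, 6, 12 and 24 h after an injection of TH, and 5 BATKO mice were taken 24 h after TH. In the temperature experiment, control (CTRL) mice were kept at 30 °C (n = 4) or 4 °C (n = 3) and BATKO mice at 30 °C (n = 5) or 4 °C (n = 4), for 24 h at 4 °C as the labels give it. In the diet experiment, lasting 3.5 days, CTRL mice received chow (n = 4) or a high-fat diet (HFD, n = 4) and BATKO mice chow (n = 2) or HFD (n = 3). The genetic change that BATKO mice carry, and the promoter of any Cre, are not given in the sources used here. All groups share the strain, sex and age range, and all mice of the TH experiment, controls included, were treated with PTU.

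mTORC1 drives the synthesis of proteins and lipids and restrains autophagy when amino acids, energy and growth factors are at hand. DDIT4 (REDD1) and its relative DDIT4L (REDD2) inhibit it through the TSC complex in stress and fasting, the sestrins inhibit it through the GATOR proteins, which relay amino acid supply to the Rag GTPases, and DEPTOR binds mTOR itself. In brown fat, mTORC1 and mTORC2 take part in the response of the tissue to cold.

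The total count ranged from 7612059 to 18073627 over the mice. Counts of any pair of libraries within a group (91 pairs) differed by far more than sampling noise, with a chi-square of at least 7.47 per degree of freedom, and each library was counted as a separate mouse. The brown fat genes Ucp1 and Adipoq were detected in every mouse, with Ucp1 between 146 and 17186 CPM. Levels are given as counts scaled to a common library size (CPM) after TMM normalization within each experiment, and levels of different experiments are therefore compared only by eye. "Higher", "lower", "rose" and "fell" are used for adjusted p-values under 0.05 in edgeR's quasi-likelihood test over all genes with a mean normalized count above 10, with Benjamini-Hochberg adjustment. All 6 members passed this filter in every fit. Nothing in the labels says that mice of a group came from separate litters or cages, and p-values measure the spread between these mice.

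The members lie on 5 chromosomes of GRCm38 and are all protein coding. Ddit4 (ENSMUSG00000020108) is on chr10:59949669-59951834, minus strand. Ddit4l (ENSMUSG00000046818) is on chr3:137621612-137628333, plus strand. Sesn1 (ENSMUSG00000038332) lies on chr10:41809935-41908424, plus strand, and Sesn2 (ENSMUSG00000028893) on chr4:132492032-132510501, minus strand. Sesn3 (ENSMUSG00000032009) lies on chr9:14275067-14333101, plus strand, and Deptor (ENSMUSG00000022419) on chr15:55112317-55259271, plus strand. In the annotation, 303 exonic bases of Deptor are shared with Gm9920 on the opposite strand, and since the strand setting of the counting is not stated, reads there could not be assigned. Gm9920 held between 1 and 13 counts per mouse, against 944 to 11568 for Deptor.

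Per kilobase of merged exons, Deptor had the highest level of the 6 genes in 15 of 15 groups, with group means between 16.2 and 90.7 CPM per kb. The other members were lower and changed their order between groups. Ddit4l was the lowest in 7 groups, with a lowest mean of 0.445 CPM per kb, and Sesn3 in 7 groups, with a lowest mean of 0.404 CPM per kb. Sesn2 ranged from 1.20 to 8.37 CPM per kb, Sesn1 from 1.36 to 3.78 CPM per kb and Ddit4 from 1.05 to 10.8 CPM per kb. These lengths cover every annotated transcript, so a gene such as Sesn3, with 15269 exonic bases, is set lower than it would be if shorter transcripts were in use.

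The promoters of Sesn3, the member with the most responses, and of Ddit4l, the most variable member, are shown as the 250 bases before the RefSeq start (GRCm38.p6), 5′ to 3′ on the strand of the gene. That of Sesn3 is chr9:14276051-14276300 and that of Ddit4l is chr3:137623422-137623671, both on the plus strand. Capitals mark the half-site bound by thyroid hormone receptors, AGGTCA, read on either strand.
Sesn3: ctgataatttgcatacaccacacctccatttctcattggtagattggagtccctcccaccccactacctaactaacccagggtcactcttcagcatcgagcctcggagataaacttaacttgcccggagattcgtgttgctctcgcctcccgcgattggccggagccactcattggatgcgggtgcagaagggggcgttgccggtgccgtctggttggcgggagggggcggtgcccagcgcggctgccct
Ddit4l: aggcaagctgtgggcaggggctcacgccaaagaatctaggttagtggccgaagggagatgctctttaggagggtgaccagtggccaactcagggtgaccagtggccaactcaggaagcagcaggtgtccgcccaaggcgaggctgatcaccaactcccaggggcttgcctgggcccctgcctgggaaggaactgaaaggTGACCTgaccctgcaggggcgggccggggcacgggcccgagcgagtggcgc
The window of Ddit4l held 1 such half-site, starting 51 bases before the start, and that of Sesn3 held none. Of 32851 promoter windows of this length in the table, 14.0% held a half-site. The direct repeat DR4, which is AGGTCA, 4 bases of any kind and AGGTCA again, occurred in 5 of all windows (0.0152%) and in none of the members.

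Windows were found for 5 members, with 2 windows for Sesn1, and none for Deptor. Both strands were also searched for the ATF4 element TGATGNAA (3.45% of all windows), the FOXO site GTAAACA (3.17%), the E-box CACGTG (6.02%), the glucocorticoid half-site TGTTCT (16.1%) and the CRE TGACGTCA (1.55%), and none of these letters occurred in a member's window. The hypoxia core, ACGTG or GCGTG, occurred in Ddit4, Ddit4l and 1 window of Sesn1, and in 38.6% of all windows. The hypoxia core can overlap the E-box. The RefSeq starts of Sesn2 and Ddit4 lie 45 and 64 bases from the nearest start in the GENCODE annotation, and that of the first Sesn1 window (chr10:41810324-41810573) lies 639 bases from it, so that these windows include transcribed bases. The windows of Sesn3 and Ddit4l end at a start that GENCODE also gives, but lie within the annotated genes, downstream of their first start.

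The first question was how the inhibitors respond over time when TH is given back to hypothyroid WT mice. The comparison at 3 h with PTU controls is described without a test, because Ddit4l was already known as one of its most decreased genes. The level of Ddit4l at 3 h against the controls is taken here as the value the members were selected on. The rule itself does not state it, and other comparisons may have played a part. The comparisons at 6, 12 and 24 h share the same 4 controls. The labels name no separate controls for each time and no time of day. Effects of time of day or of the injection itself therefore cannot be told apart from those of TH. At 6 h, 4 of 6 members were lower and 0 higher, where 23% of the 13003 genes tested were called, and in the fits that left out any 1 of the 8 mice, 1 to 2 members were called. If the PTU controls took part in the choice of Ddit4l, its tests against them are not independent of that choice, and without Ddit4l the counts were 3 of 5 members lower at 6 h, and 2 higher and 2 lower at 12 h. At 12 h, 2 were higher and 3 lower, beside 25.7% of all genes, and at 24 h, 1 was higher and 1 lower, beside 32.7%. The median log2 change of the members was -0.79 at 6 h, -0.36 at 12 h and 0.12 at 24 h, and that of all genes was -0.0040 at 6 h, -0.02 at 12 h and 0.01 at 24 h. Without Ddit4l the middle value was that of Sesn1 each time, at -0.52 at 6 h, 0.05 at 12 h and -0.12 at 24 h.

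**Figure D1:**
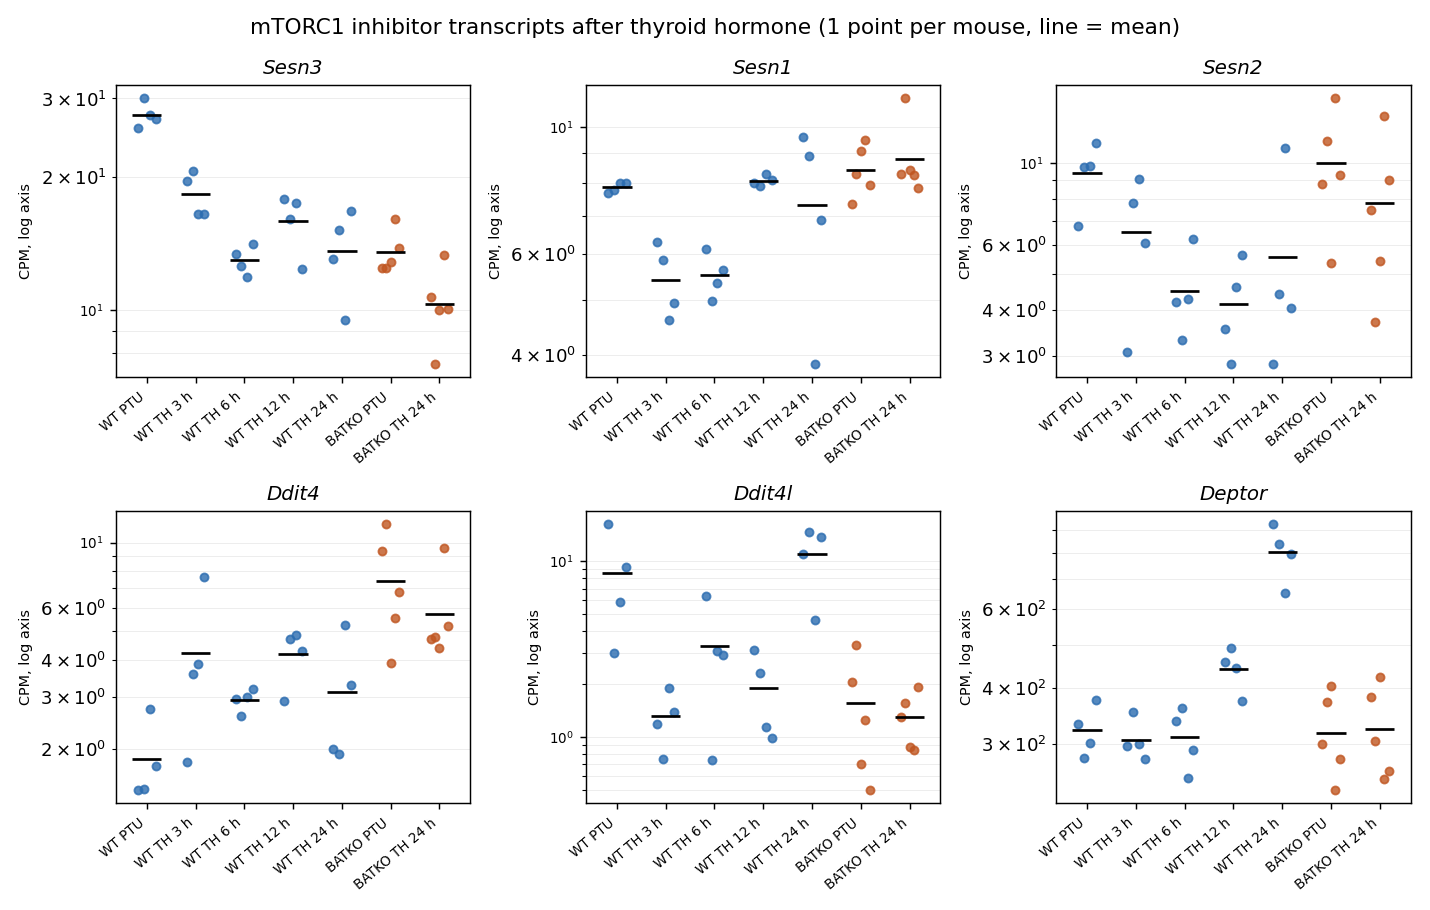
Levels of the 6 members in the TH experiment, in CPM on a log axis, with 1 point per mouse (WT blue, BATKO orange) and a line at the mean of each group. Sesn3 was below every WT control mouse at 3, 6, 12 and 24 h, and Deptor was above every other group at 24 h in WT mice.

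Sesn3 showed the longest lasting decrease after TH. Its levels in the PTU controls were 25.7, 30.0, 27.6 and 26.9 CPM. They were 19.5, 20.6, 16.5 and 16.5 CPM at 3 h, and 13.4, 12.6, 11.9 and 14.1 CPM at 6 h. Every treated mouse was below every control, and mice at 6 h did not overlap with mice at 3 h. At 12 h the levels were 17.8, 16.0, 17.4 and 12.4 CPM, and at 24 h they were 13.1, 15.1, 9.51 and 16.7 CPM, again below all controls. The log2 fold change was -1.10 ± 0.14 (SE) at 6 h (adjusted p = 9.8e-06), -0.78 ± 0.14 at 12 h (adjusted p = 0.000282) and -1.02 ± 0.14 at 24 h (adjusted p = 1.04e-05), all from edgeR. Changes from 6 to 12 h and from 12 to 24 h did not pass the test. At 3 h the value was -0.61 ± 0.14, given as a description. The summed level of 9 brown adipocyte markers was between 10146 and 12013 CPM in the controls, 12890 and 17580 CPM at 3 h and 14988 and 17274 CPM at 6 h. It was between 13128 and 20139 CPM at 12 h and 10866 and 18635 CPM at 24 h, and only the 24 h mice overlapped with the controls. Ucp1 alone was at up to 16002 CPM in this experiment. Of the 9 markers, 4 rose and 1 fell at 6 h, 2 rose and 3 fell at 12 h, and 1 rose and 4 fell at 24 h. Endothelial markers summed to between 306 and 332 CPM in the controls and between 226 and 287 CPM at 12 h, without overlap, with 1 of 5 higher and 2 lower. At 3 h they summed to between 332 and 349 CPM. White adipocyte markers summed to between 56.8 and 102 CPM at 3 h and between 105 and 117 CPM in the controls. The part of these markers in the changes of Sesn3 and the other members was not tested. In bulk tissue, fewer cells of a type and less RNA per cell cannot be told apart.

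Sesn1, a p53 and FOXO target in other tissues, was lower early in the time course. Its levels were 7.67, 7.76, 7.98 and 8.00 CPM in the controls, 6.30, 5.86, 4.61 and 4.93 CPM at 3 h and 6.14, 4.99, 5.35 and 5.63 CPM at 6 h. Neither set of treated mice overlapped with the controls. At 12 h the levels were 7.98, 7.91, 8.28 and 8.08 CPM, which overlapped with the controls. The change at 6 h was -0.52 ± 0.19 on the log2 scale (adjusted p = 0.0485), and was not called when any of the 8 mice was left out (adjusted p up to 0.101). At 12 h it was 0.05 ± 0.19 (adjusted p = 0.890), and at 24 h -0.12 ± 0.18 (adjusted p = 0.660).

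Sesn2, which is induced by ATF4 and p53 in other settings, was between 6.75 and 11.3 CPM in the controls. It was at 4.20, 3.32, 4.28 and 6.25 CPM at 6 h, and at 3.54, 2.86, 4.62 and 5.63 CPM at 12 h, in each case below all controls. The log2 change was -1.07 ± 0.34 at 6 h (adjusted p = 0.0287) and -1.18 ± 0.36 at 12 h (adjusted p = 0.0181). At 6 h the call was lost in 6 of the 8 fits that left out 1 mouse, with adjusted p-values up to 0.0730. These were the fits without B3, B4, B5, B12, B13 or B15. At 12 h it was lost without mouse B20 (adjusted p = 0.0578). At 24 h, 3 mice were at 2.86, 4.41 and 4.06 CPM and mouse B27 was at 11.0 CPM. The change was -0.74 ± 0.34 (adjusted p = 0.101), and -1.31 without mouse B27 (adjusted p = 0.00257).

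Mouse B27 also had the lowest Sesn1 (3.87 CPM) and Sesn3 (9.51 CPM) and the highest Ddit4 (5.28 CPM) of its group. Its brown adipocyte markers summed to 18635 CPM, against 10866 to 12538 CPM in the other mice at 24 h. Mitochondrial genes held 40.5% of its counts, against 44.8 to 52.5% in those mice. Whether this bears on its member levels was not tested. Within groups, over all 59 mice, the log2 levels of Sesn1 and Sesn2 were inversely related (r = -0.68), and those of Sesn1 and Sesn3 went together (r = 0.47). Sesn1 was also inversely related to the summed brown adipocyte markers (r = -0.64), and Sesn2 positively (r = 0.50). These correlations are a description, since the genes share libraries, and whether the markers bear on the relation between the sestrins was not tested.

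Ddit4, which is induced by glucocorticoids, hypoxia and ATF4 in many tissues, had its lowest group mean of the series in the WT PTU controls. The 4 controls were at 1.46, 1.46, 2.72 and 1.76 CPM. Mice at 12 h were at 2.90, 4.72, 4.88 and 4.29 CPM, above all controls, with a log2 change of 1.16 ± 0.37 (adjusted p = 0.0258). This call was lost without mouse B2, B3, B5, B20 or B21, with adjusted p-values up to 0.0731. At 3 h the mice spread from 1.81 to 7.65 CPM, and the log2 change was 1.17 ± 0.36. The changes at 6 h (0.63 ± 0.37, adjusted p = 0.233) and 24 h (0.75 ± 0.37, adjusted p = 0.130) did not pass the test.

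Deptor was near the controls for the first hours and was higher later. The controls were at 333, 279, 301 and 376 CPM, and mice at 6 h were at 338, 362, 252 and 291 CPM. At 12 h the levels were 457, 491, 445 and 374 CPM, which overlapped with the controls by a single mouse. At 24 h they were 930, 840, 654 and 795 CPM, above every other mouse of the TH experiment. The log2 change was -0.07 ± 0.13 at 6 h (adjusted p = 0.727), 0.46 ± 0.13 at 12 h (adjusted p = 0.0120) and 1.32 ± 0.13 at 24 h (adjusted p = 2.08e-07). From 12 to 24 h, where 11.4% of all genes were called and 2 of 6 members were higher, Deptor rose by 0.86 ± 0.13 (adjusted p = 0.000364). From 6 to 12 h, where 2.95% of all genes were called and 1 of 6 members was higher, the change of 0.53 ± 0.13 (adjusted p = 0.0329) was called only in 2 of the 8 fits that left out 1 mouse. It was lost without mouse B12, B15, B17, B19, B20 or B21, with adjusted p-values up to 0.105.

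Ddit4l was at 16.3, 3.01, 5.89 and 9.23 CPM in the PTU controls. At 3 h it was at 1.18, 0.751, 1.91 and 1.39 CPM, below all controls, a log2 change of -2.73 ± 0.54 that is described only. Mice at 6 h were at 6.37, 0.739, 3.08 and 2.92 CPM, at 12 h at 3.14, 2.31, 1.13 and 0.980 CPM, and at 24 h at 11.1, 14.8, 4.61 and 13.7 CPM. The change was -1.39 ± 0.49 at 6 h (adjusted p = 0.0422) and -2.14 ± 0.54 at 12 h (adjusted p = 0.00506), and Ddit4l rose by 2.49 ± 0.53 from 12 to 24 h (adjusted p = 0.00493). At 24 h it was 0.35 ± 0.45 from the controls (adjusted p = 0.581). The tests against the controls reuse control mice of the 3 h comparison. The change from 12 to 24 h compares other mice, but the 3 h and PTU mice were part of the same fit and its estimate of spread. Its p-value may therefore also not be independent of the choice of Ddit4l. The call at 6 h was lost without mouse B2, B5, B13, B15 or B17, with adjusted p-values up to 0.212, and with DESeq2 (adjusted p = 0.0642). Without mouse B2 the change at 6 h was -0.89.

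Skeletal muscle markers (Acta1, Ckm and 7 others, encoding contractile and energy proteins of muscle fibres) moved with Ddit4l in part of these groups. Their summed level was between 66.1 and 671 CPM in the PTU controls, 3.45 and 248 CPM at 3 h, 275 and 1682 CPM at 6 h, 3.48 and 311 CPM at 12 h and 272 and 1179 CPM at 24 h. All 9 markers were detected in every group. Thus the groups with low Ddit4l at 3 and 12 h also had low muscle marker levels, whereas at 6 h the marker levels ranged higher than in the controls. With the log2 marker level of each mouse as a covariate, an alternative chosen after the values were seen, the Ddit4l change was -1.76 at 3 h, -1.82 at 6 h (adjusted p = 0.00221), -1.13 at 12 h (adjusted p = 0.122) and 1.16 from 12 to 24 h (adjusted p = 0.283). The same covariate also left Ddit4 (adjusted p = 0.0589), Sesn2 (adjusted p = 0.0545) and Deptor (adjusted p = 0.0598) above the threshold at 12 h, with log2 changes of 1.20, -1.14 and 0.41. Sesn3 was then the only member called at 12 h, where 2616 of all genes were called, against 3346 without the covariate.

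Over all 59 mice, Ddit4l and the muscle markers were related within groups (Pearson's r = 0.81, Spearman's rho = 0.81 of log2 levels), which is a description over mice that share normalization and, in each experiment, handling. For the other members, the correlation with the muscle markers within groups was between -0.29 and 0.03. The spread of Ddit4l between mice was wider than that of 98.6%, 98.8% and 99.3% of the genes tested in the TH, temperature and diet experiments. In BATKO mice at 30 °C, for example, Ddit4l was at 37.5, 1.95, 1.39, 3.23 and 21.5 CPM, where the muscle markers summed to 7681, 1.30, 0.870, 487 and 8395 CPM. Whether Ddit4l RNA came from muscle fibres in the samples was not tested.

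**Figure D2:**
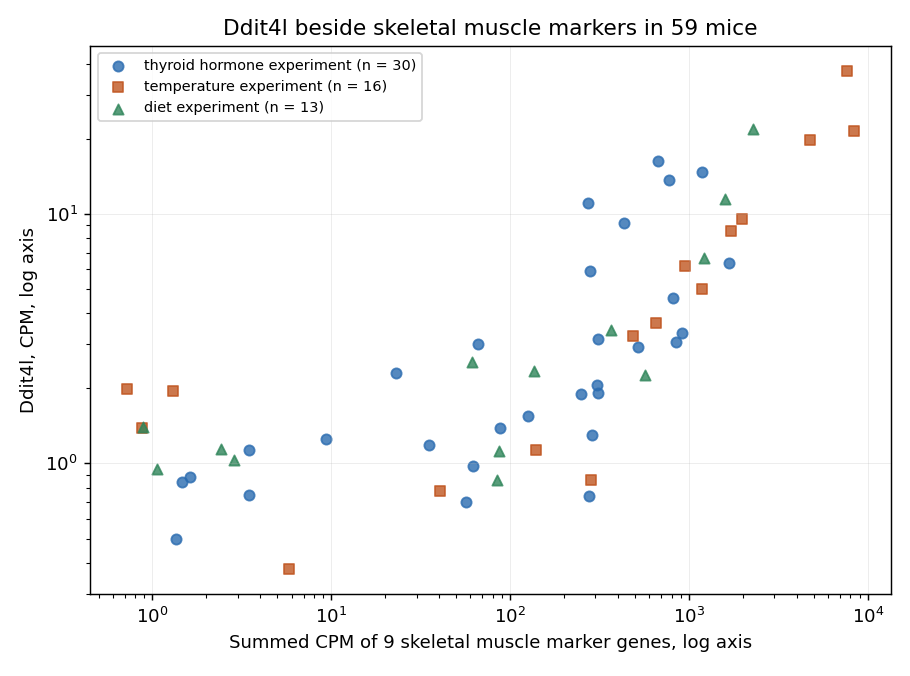
Ddit4l in CPM (vertical, log axis) against the summed CPM of 9 skeletal muscle markers (horizontal, log axis), with 1 point per mouse and a colour and shape for each experiment. The mice with the highest marker levels were also those with the highest Ddit4l, up to 37.5 CPM.

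The response to TH was compared between WT and BATKO mice at 24 h. In BATKO mice, 0 of 14178 genes were called between TH and PTU (0%), with 673 genes at an unadjusted p under 0.05 and 0 genes called by DESeq2. Among the members, 0 of 6 were called, 1 (Sesn3) at an unadjusted p under 0.05, and 0 by DESeq2. Deptor was at 301, 372, 404, 237 and 277 CPM in BATKO PTU mice and at 383, 304, 424, 251 and 262 CPM 24 h after TH. These groups overlapped, with a log2 change of 0.03 ± 0.15 and a 95% interval from -0.27 to 0.33. The difference between the responses, as an interaction term, was called for 12.3% of all genes and for 2 of 6 members. For Deptor the response of BATKO mice was lower than that of WT mice by -1.29 ± 0.22 on the log2 scale (adjusted p = 0.000351), and the call held in all 18 fits that left out 1 mouse. WT and BATKO mice differed widely with PTU alone (given with the BATKO PTU mice), and whether that bears on the interaction was not tested.

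For Sesn3, BATKO mice were at 12.5, 12.4, 12.9, 16.1 and 13.8 CPM with PTU alone, and at 10.7, 7.57, 10.04, 13.3 and 10.1 CPM 24 h after TH. The change was -0.39 ± 0.14 with a 95% interval from -0.66 to -0.11 (adjusted p = 0.963). Compared with the WT decrease of 1.02, the difference was 0.63 ± 0.20 (adjusted p = 0.0360). It was not called without WT mice B3 or B27, BATKO PTU mice 2, 3 or 4, or BATKO TH mouse 10 (adjusted p up to 0.0944). The Sesn3 call was also lost without a filter on the mean count (adjusted p = 0.0562), with only the groups compared (adjusted p = 0.0688) and with the muscle covariate (adjusted p = 0.0554). For the other 4 members the difference did not pass the test, with 95% intervals from -2.15 to -0.11 for Ddit4, -2.09 to 0.80 for Ddit4l, -0.29 to 0.65 for Sesn1 and -0.62 to 1.38 for Sesn2.

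BATKO PTU mice also differed from WT PTU mice in 3 of 6 members, beside 70.3% of all genes. Ddit4 was at 9.39, 11.6, 3.90, 5.54 and 6.79 CPM in BATKO mice, above every WT control, with a log2 difference of 1.98 ± 0.36 (adjusted p = 1.91e-05). Sesn3 was lower by -1.03 ± 0.14 (adjusted p = 1.24e-07) and did not overlap with the WT controls. Ddit4l was at 2.05, 3.34, 0.704, 1.25 and 0.500 CPM and lower by -2.44 ± 0.48 (adjusted p = 5.3e-05), while the muscle markers were between 1.36 and 912 CPM in BATKO PTU mice. With the muscle covariate the Ddit4l difference was -1.95 (adjusted p = 5.01e-05). The WT controls are those of the 3 h comparison, so these p-values may not be independent of the choice of Ddit4l, and without Ddit4l 2 of 5 members were called. Between these groups, brown adipocyte markers summed to 3635 to 4512 CPM in BATKO and 10146 to 12013 CPM in WT mice (8 of 9 lower). White adipocyte markers summed to 28.1 to 49.3 CPM in BATKO and 105 to 117 CPM in WT mice (2 of 3 higher and 1 lower), and endothelial markers to 402 to 455 and 306 to 332 CPM (4 of 5 higher). Their part in the differences was not tested. The ribosomal protein gene Rps6 was at 44.0 CPM in BATKO and 0.796 CPM in WT mice. Whether WT and BATKO libraries of the TH experiment were prepared together is not given in the sources used here, and a difference in preparation and the genotype cannot be told apart. In the other experiments, 0 of 6 members differed between BATKO and CTRL mice at 30 °C, where 0.00754% of all genes were called, at 4 °C, where 2.16% were called, on chow (0%) or on HFD (0%), by edgeR and by DESeq2, and 0 members had an unadjusted p under 0.05. On chow and HFD, 1024 and 691 genes had an unadjusted p under 0.05, and DESeq2 called 33 and 9 genes. At 30 °C and 4 °C, DESeq2 called 8 and 650 genes.

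**Figure D3:**
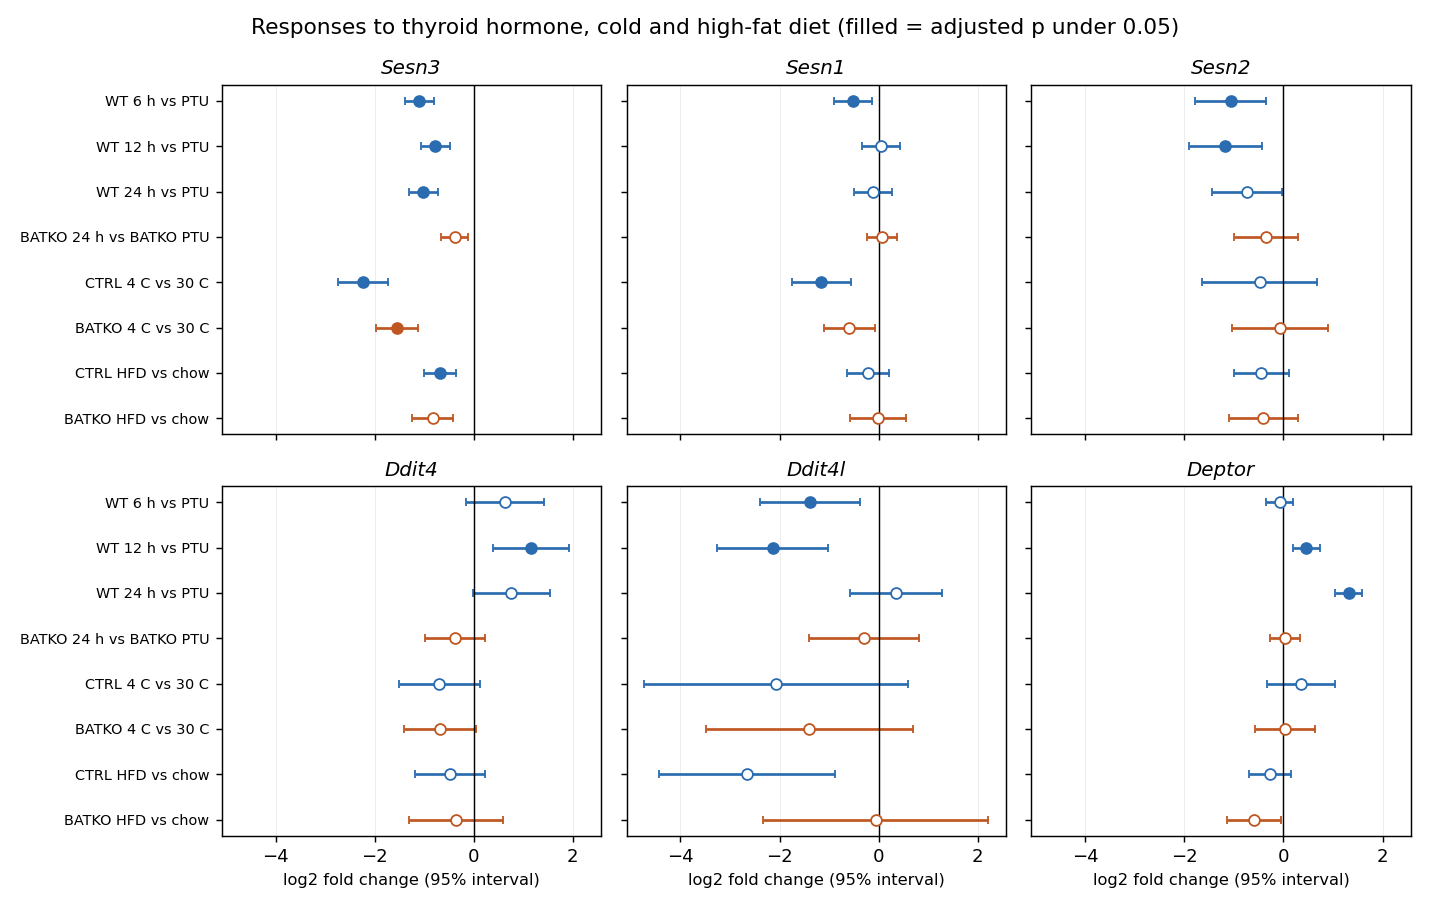
Log2 fold changes of the 6 members with 95% intervals from edgeR, in WT or CTRL mice (blue) and BATKO mice (orange), for 8 comparisons with TH, cold and HFD. Filled points have an adjusted p under 0.05. Sesn3 lies left of 0 in all 8 comparisons, of which 6 are filled, and Deptor reaches 1.32 at 24 h in WT mice.

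The temperature experiment asked how the tissue differs between 4 °C and 30 °C, and whether this depends on the BATKO genotype. In CTRL mice, 2 of 6 members were lower at 4 °C and 0 higher, beside 49.1% of 13267 genes, and in BATKO mice 1 was lower, beside 40.3%. The median log2 change of the members was -0.93 in CTRL and -0.64 in BATKO mice, against -0.01 and -0.02 over all genes. Sesn3 had the clearest decrease. It was at 31.0, 31.5, 28.4 and 25.3 CPM in CTRL mice at 30 °C and at 4.96, 6.02 and 7.51 CPM at 4 °C, without overlap. The log2 change was -2.23 ± 0.24 (adjusted p = 1.85e-06), a level 0.213 times that at 30 °C.

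In BATKO mice, Sesn3 was at 24.5, 34.8, 29.4, 21.2 and 18.01 CPM at 30 °C and at 9.36, 9.21, 10.4 and 6.02 CPM at 4 °C, again without overlap. The log2 change was -1.55 ± 0.20 (adjusted p = 2.25e-05). The responses differed between genotypes by 0.69 ± 0.30 (95% interval 0.05 to 1.32), which was not called by edgeR (adjusted p = 0.230), beside 1.12% of all genes and 0 of 6 members. Of the members 1, Sesn3, had an unadjusted p under 0.05. DESeq2 called 656 genes for this difference and 0 members. The Sesn3 calls in the cold held in every fit that left out 1 mouse, in both genotypes.

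Sesn1 was at 20.7, 15.8, 13.3 and 10.4 CPM in CTRL mice at 30 °C and at 5.75, 6.02 and 8.48 CPM at 4 °C, with no overlap and a log2 change of -1.16 ± 0.28 (adjusted p = 0.00284). In BATKO mice it was at 17.6, 14.7, 15.7, 9.25 and 8.26 CPM at 30 °C and at 7.67, 7.69, 9.45 and 9.97 CPM at 4 °C. The groups overlapped, and the change of -0.59 ± 0.24 did not pass the test (adjusted p = 0.0605), though it was called without BATKO mouse 16 (adjusted p = 0.0341) or 17 (adjusted p = 0.0209) at 30 °C and by DESeq2 (adjusted p = 0.0435). The difference between the genotypes was 0.57 ± 0.36 (adjusted p = 0.424).

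The other 4 members were not called at 4 °C in either genotype by edgeR. Sesn2 was between 8.46 and 24.3 CPM in CTRL mice at 30 °C and between 7.30 and 11.7 CPM at 4 °C (adjusted p = 0.485). It spread from 5.41 to 40.1 CPM in BATKO mice at 30 °C. Ddit4 was at 20.4, 6.00, 13.5 and 12.2 CPM in CTRL mice at 30 °C and at 5.64, 6.64 and 11.8 CPM at 4 °C, a change of -0.70 ± 0.39 (adjusted p = 0.148). This was called without CTRL mouse 20 at 30 °C (-0.94, adjusted p = 0.0439), and in BATKO mice, where it was -0.68 ± 0.34 (adjusted p = 0.125), without BATKO mouse 12 at 4 °C (-0.99, adjusted p = 0.0449). Deptor, which rose after TH, was at 135, 182, 251 and 236 CPM in CTRL mice at 30 °C and at 279, 190 and 305 CPM at 4 °C, with a log2 change of 0.36 ± 0.33 and a 95% interval from -0.33 to 1.05 (adjusted p = 0.374).

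Ddit4l was at 2.00, 9.52, 19.8 and 0.777 CPM in CTRL mice at 30 °C, where the muscle markers summed to 0.719, 1969, 4731 and 40.5 CPM. At 4 °C it was at 1.13, 0.860 and 3.65 CPM, with muscle markers at 140, 284 and 653 CPM. The change was -2.07 ± 1.26 (adjusted p = 0.184), and -1.73 with the muscle covariate (adjusted p = 0.0204). In BATKO mice it was -1.40 ± 0.99 (adjusted p = 0.275), and -1.11 with the covariate (adjusted p = 0.0616). Brown adipocyte markers also differed with temperature, between 2681 and 4770 CPM in CTRL mice at 30 °C and between 19589 and 24956 CPM at 4 °C, where 7 of the 9 rose and 1 fell. Erythroid markers were between 175 and 328 CPM at 30 °C and between 756 and 1688 CPM at 4 °C in the same mice, and smooth muscle markers between 93.3 and 110 CPM and between 158 and 225 CPM. Markers of other cell types went the other way without overlap in these mice, with fibroblast markers from 227 to 315 CPM at 30 °C and from 163 to 186 CPM at 4 °C, macrophage markers from 24.4 to 37.3 and from 19.5 to 20.5 CPM, and lymphocyte markers, too low to be tested, from 1.46 to 2.80 and from 0.369 to 0.677 CPM. White adipocyte markers overlapped, from 41.4 to 166 and from 10.4 to 45.8 CPM, with 2 of 3 lower. In BATKO mice, the brown adipocyte sum was between 3456 and 4947 CPM at 30 °C and between 11753 and 19632 CPM at 4 °C (6 of 9 higher), and the erythroid sum between 178 and 488 CPM and between 761 and 1095 CPM, both without overlap, and 3 of 5 endothelial markers fell. White adipocyte markers in BATKO mice were between 82.8 and 191 CPM at 30 °C and between 25.6 and 83.9 CPM at 4 °C. Smooth muscle markers were between 96.9 and 170 CPM and between 141 and 231 CPM, and both lists overlapped. The part of these levels in the changes of Sesn3 and Sesn1 was not tested.

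**Figure D4:**
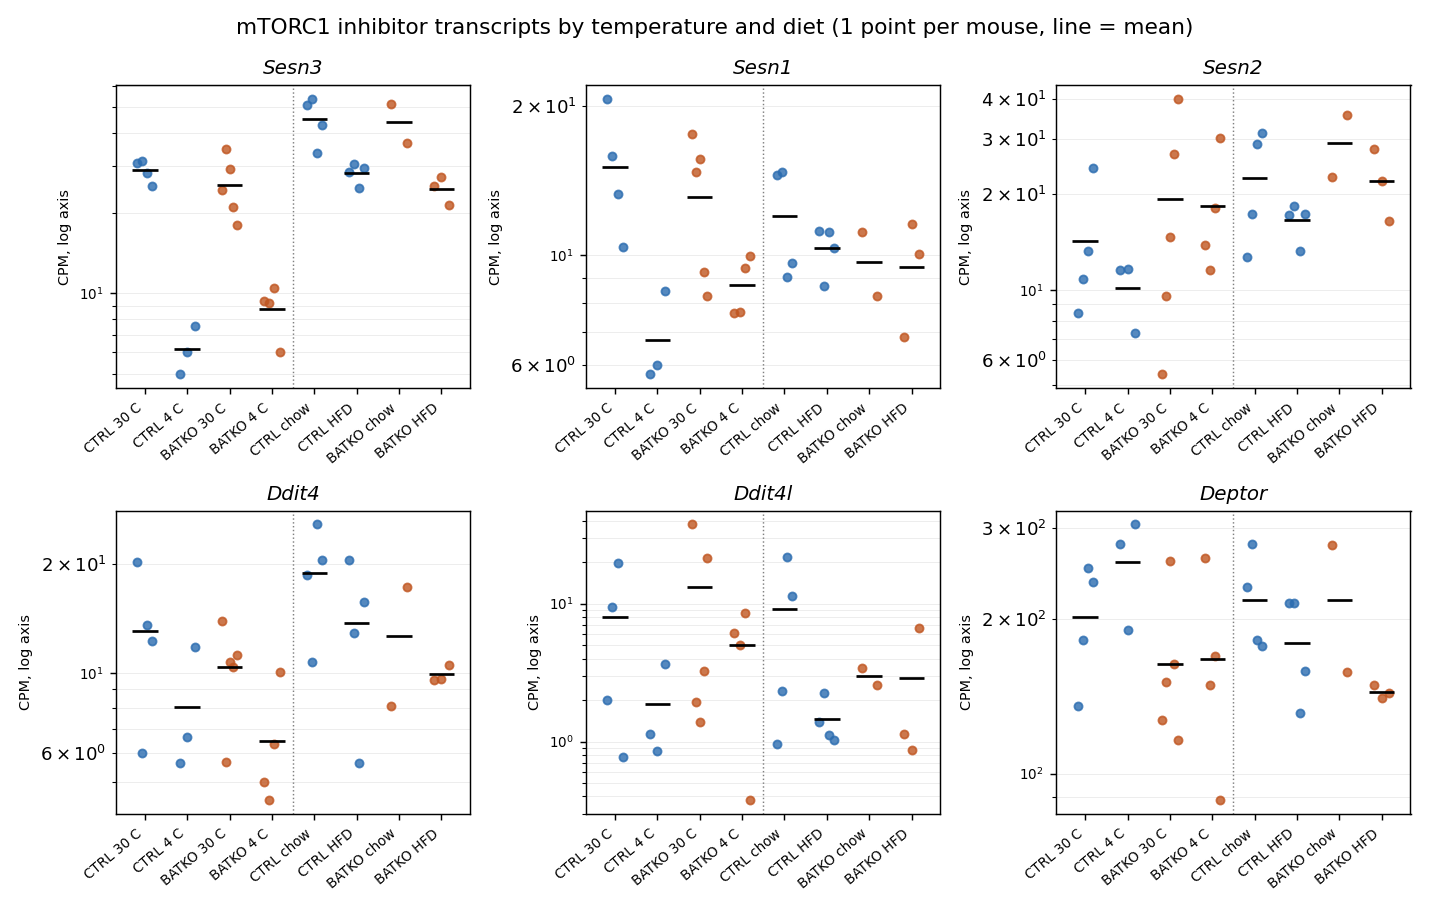
Levels of the 6 members in the temperature experiment (left of the dotted line) and the diet experiment (right of it), in CPM on a log axis, with 1 point per mouse (CTRL blue, BATKO orange) and a line at the mean. Sesn3 did not overlap between 30 °C and 4 °C or between chow and HFD in either genotype.

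The diet experiment compared HFD with chow. In CTRL mice, 1 of 6 members was lower on HFD, beside 3.94% of 12932 genes, and in BATKO mice 0 were called, beside 0.0696%, with 2 members, Sesn3 and Deptor, at an unadjusted p under 0.05 and 1 member, Sesn3, called by DESeq2, which called 1.75% of all genes (226). The median log2 change of the members was -0.46 in CTRL and -0.38 in BATKO mice, and that of all genes was 0.01 and 0.03. Sesn3 was at 51.1, 53.9, 33.7 and 42.9 CPM in CTRL mice on chow and at 28.5, 30.7, 24.8 and 29.6 CPM on HFD. The groups did not overlap, and the log2 change was -0.68 ± 0.15 (adjusted p = 0.0258). The call was lost without HFD mouse 10 or 11 or chow mouse 1, 2 or 4, with adjusted p-values up to 0.0890. In the same mice, the brown adipocyte markers summed to 4398 to 6362 CPM on chow and 6059 to 7680 CPM on HFD (2 of 9 higher), the fibroblast markers to 226 to 294 and 291 to 372 CPM (1 of 4 higher), the macrophage markers to 19.6 to 22.9 and 24.8 to 81.9 CPM, and the lymphocyte markers to 1.17 to 2.10 and 0.254 to 0.387 CPM. Macrophage and lymphocyte sums did not overlap between the diets, and the part of these levels in the result was not tested. In BATKO mice Sesn3 was at 51.5 and 36.6 CPM on chow and at 25.2, 27.4 and 21.5 CPM on HFD, a change of -0.83 ± 0.20 that was not called by edgeR (adjusted p = 0.104) and was called by DESeq2 (adjusted p = 0.0142). The responses of the genotypes differed by -0.15 ± 0.25 (95% interval -0.69 to 0.38), where 0 of 12932 genes were called by edgeR (0%), 740 genes had an unadjusted p under 0.05 and DESeq2 called 0. Of the members, 0 were called for this difference by edgeR or DESeq2, and 0 had an unadjusted p under 0.05.

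Ddit4l was at 0.953, 2.34, 21.9 and 11.4 CPM in CTRL mice on chow, where the muscle markers summed to 1.06, 137, 2292 and 1585 CPM, and at 1.40, 2.26, 1.12 and 1.03 CPM on HFD, where they summed to 0.889, 571, 86.4 and 2.84 CPM. The change of -2.65 ± 0.83 did not pass the test (adjusted p = 0.0875), was called without chow mouse 1 (-3.05, adjusted p = 0.0386), and was -1.28 with the muscle covariate (adjusted p = 0.207). On chow, 2 CTRL mice held most of both the Ddit4l and the muscle marker signal. Deptor was at 230, 280, 181 and 177 CPM in CTRL mice on chow and at 215, 214, 131 and 158 CPM on HFD (adjusted p = 0.452). In BATKO mice it was at 278 and 157 CPM on chow and at 149, 140 and 143 CPM on HFD, without overlap, and the log2 change of -0.60 ± 0.25 (95% interval -1.14 to -0.05) was not called (adjusted p = 0.293). Ddit4 (adjusted p = 0.431), Sesn1 (adjusted p = 0.576) and Sesn2 (adjusted p = 0.336) also did not pass the test in CTRL mice.

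Across the 18 comparisons tested, Sesn3 was called in 8, of which 6 were decreases after TH, in the cold or on HFD, 1 was the lower level in BATKO than in WT mice with PTU and 1 was the difference between the TH responses of these genotypes. Deptor was called in 5, all within the TH experiment. Ddit4l was called in 4, Ddit4, Sesn1 and Sesn2 in 2 each. These comparisons share mice and are not independent. Group means of Sesn3 spanned 6.17 CPM (CTRL, 4 °C) to 45.4 CPM (CTRL, chow), and those of Deptor 144 CPM (BATKO, HFD) to 805 CPM (WT, 24 h after TH).

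The other genes of the pathway were followed as a list of 61, made of the TSC complex and Rheb, the mTOR complexes, GATOR and KICSTOR, the Rag GTPases with Ragulator and folliculin, substrates and outputs of mTORC1, and AMPK. In WT mice, 7 rose and 3 fell of the 58 tested at 6 h, 9 rose and 5 fell at 12 h, and 14 rose and 5 fell at 24 h. These are 17.2%, 24.1% and 32.8% of those tested, beside 23%, 25.7% and 32.7% of all genes. At 24 h, Mtor, the kinase itself, rose by 0.58 ± 0.14 (adjusted p = 0.00330) and Rptor, the scaffold of mTORC1, by 0.58 ± 0.15 (adjusted p = 0.00427). Of 11 substrates and outputs of mTORC1 tested, 4 rose and 1 fell. Tfeb, a regulator of lysosomal genes, rose by 0.97 ± 0.23 (adjusted p = 0.00272) and Ulk1, a kinase that starts autophagy, by 0.71 ± 0.21 (adjusted p = 0.0149), while Eif4ebp1, a translational repressor that mTORC1 inactivates, changed by -0.73 ± 0.17 (adjusted p = 0.00283). Flcn, encoding folliculin, which acts on RagC and RagD, changed by -0.78 ± 0.15 (adjusted p = 0.000437). Of the AMPK subunits, Prkab1 rose by 1.19 ± 0.21 (adjusted p = 0.000170) and Prkaa2 by 0.82 ± 0.12 (adjusted p = 2.58e-05), while Prkag2 fell by 0.83 ± 0.18 (adjusted p = 0.00163).

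In BATKO mice, 0 of 59 genes of this list were called 24 h after TH, by edgeR, as was the case for all genes. The difference between the responses was called for 8 of 59, a share of 13.6% beside 12.3% of all genes. The response of BATKO minus that of WT mice was above 0 for 2 of them and below 0 for 6. Rheb, the GTPase that activates mTORC1, was among the former (0.64 ± 0.19, adjusted p = 0.0250). Its change was -0.65 ± 0.12 in WT mice (adjusted p = 0.000322), and its mean went from 33.1 to 32.8 CPM in BATKO mice. Rptor (-0.62 ± 0.21, adjusted p = 0.0441) and Prkab1 (-1.01 ± 0.31, adjusted p = 0.0301) were among the 6 below 0.

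In the cold, 24 of 60 genes of the list rose and 10 fell in CTRL mice, and 17 rose and 8 fell in BATKO mice. These are 56.7% in CTRL mice, beside 49.1% of all genes, and 41.7% in BATKO mice, beside 40.3%. Mtor rose by 1.96 ± 0.14 in CTRL mice (adjusted p = 6.1e-08), from 62.7 to 245 CPM, and by 1.32 ± 0.12 in BATKO mice (adjusted p = 1.42e-06). Lamtor1, the anchor of Ragulator, rose by 2.00 ± 0.20 (adjusted p = 9.25e-07) in CTRL and 1.67 ± 0.17 (adjusted p = 2.82e-06) in BATKO mice. Flcn, which fell 24 h after TH, rose by 1.70 ± 0.17 in CTRL mice (adjusted p = 8.94e-07). Rragb changed by -1.72 ± 0.34 (adjusted p = 0.000571) and Prr5l, a partner of mTORC2, by -2.09 ± 0.36 (adjusted p = 0.000149). Mtor was also the 1 gene of the list that differed between genotypes at 4 °C (-0.58 ± 0.14 in BATKO, adjusted p = 0.0416). On HFD, 0 rose and 2 of 59 fell in CTRL mice, the AMPK subunits Prkaa2 (-0.58 ± 0.14, adjusted p = 0.0351) and Prkab2 (-0.70 ± 0.16, adjusted p = 0.0287). That is 3.39% of the list, beside 3.94% of all genes.

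Factors known to induce members elsewhere, and their targets, were listed as well. Whether the RNA levels of these genes bear on those of the members was not tested. Foxo1, which induces Sesn3 and Sesn1 in other tissues, rose by 1.35 ± 0.25 at 6 h (adjusted p = 0.000528), 1.34 ± 0.25 at 12 h (adjusted p = 0.000382) and 1.23 ± 0.25 at 24 h (adjusted p = 0.000675) in WT mice. The target lists hold 6 or 7 genes each, and the shares of all genes called were 23% at 6 h, 25.7% at 12 h, 32.7% at 24 h, 49.1% in the cold and 3.94% on HFD. Of 7 FOXO targets, 1 rose at 6 h, 1 at 12 h and 2 at 24 h, with 0 lower, and 1 rose and 2 fell in the cold in CTRL mice. The FOXO target called at 6 and 12 h was Klf15, which is also counted among the glucocorticoid targets. Those called at 24 h were Fbxo32 and Trim63, the latter at a mean of 0.317 CPM in the controls and 1.83 CPM at 24 h. Skeletal muscle markers summed to 66.1 to 671 CPM in the controls and 272 to 1179 CPM at 24 h, and their part was not tested. Foxo3 was lower in the cold by -1.03 ± 0.18 in CTRL mice (adjusted p = 0.000186) and -0.60 ± 0.15 in BATKO mice (adjusted p = 0.00560). Trp53, encoding p53, was lower in the cold by -0.82 ± 0.26 in CTRL mice (adjusted p = 0.0145) and -0.66 ± 0.22 in BATKO mice (adjusted p = 0.0239). After TH it was higher at 6 h (0.63 ± 0.22, adjusted p = 0.0437) and 24 h (0.73 ± 0.22, adjusted p = 0.0148) in WT mice. Hif1a, a mediator of the hypoxia response that induces Ddit4 in other tissues, was higher in the cold by 0.70 ± 0.19 in CTRL mice (adjusted p = 0.00635) and 0.81 ± 0.17 in BATKO mice (adjusted p = 0.00130). In CTRL mice, of 6 p53 targets 2 rose and 1 fell in the cold. Of 7 glucocorticoid targets, 2 rose at 6 h, 5 at 12 h and 2 at 24 h, with 0 lower and a median log2 change of 0.81, 1.28 and 0.45. Klf9, a gene that also responds to TH, rose by 1.89 ± 0.10 at 12 h (adjusted p = 4.79e-11), and Zbtb16 by 1.91 ± 0.62 (adjusted p = 0.0275). In the cold, 0 of these targets rose and 2 fell in CTRL mice, Per1 by -1.49 ± 0.40 (adjusted p = 0.00585). On HFD, Per1 (-1.43 ± 0.20, adjusted p = 0.00215) and Sgk1 (-0.98 ± 0.13, adjusted p = 0.00125) were lower and Zbtb16 was higher in CTRL mice. Of the ATF4 targets tested, 1 of 5 rose and 1 fell at 6 h, 0 were called at 12 h, and 1 rose and 1 fell at 24 h. These were Ddit3 (1.13 ± 0.21 at 6 h, adjusted p = 0.000532, and 0.96 ± 0.21 at 24 h, adjusted p = 0.00130) and Asns (-0.57 ± 0.15 at 6 h, adjusted p = 0.00897, and -0.41 ± 0.15 at 24 h, adjusted p = 0.0426). In CTRL mice, 2 of 6 fell in the cold and 1 of 6 on HFD, with 0 higher in each. In BATKO mice, 1 rose and 2 fell in the cold, where 40.3% of all genes were called. Atf3 was lower in CTRL mice in the cold (-2.19 ± 0.69, adjusted p = 0.0153) and on HFD (-2.45 ± 0.28, adjusted p = 0.000859).

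The genes with the pattern most like that of each member were taken as the 3 with the highest Pearson's r of log2 CPM over 59 mice, centred within each experiment, among 8482 or 8483 genes with a mean normalized count above 50. For Sesn3 these were Erbb4 (r = 0.89), Fchsd2 (r = 0.89) and Fmo5 (r = 0.88), and within groups r was 0.55, 0.54 and 0.39. For Ddit4l they were Pkia (r = 0.87), an inhibitor of protein kinase A, Hrc (r = 0.87), a calcium-binding protein of the sarcoplasmic reticulum of striated muscle, and Tpm2 (r = 0.86), a tropomyosin, with r between 0.88 and 0.91 within groups. Ddit4 was most like Per1 (r = 0.71), Nfkbia (r = 0.69) and Map3k6 (r = 0.68). Sesn1 was most like Fam102b, Phip and Mdfic (r between 0.78 and 0.80), Sesn2 most like Klf4 (r = 0.79), Lrrc32 and Zbtb21, and Deptor most like Ahcyl1, Dhrs7 and Adk (r = 0.76 for each). These values describe mice that share treatments and libraries, and the groups contribute to them.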

How the data were processed

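Brown adipose tissue of 59 mice in 15 groups was sequenced after Trizol extraction with a total RNA kit, 1 library per mouse. The authors aligned reads to GRCm38 (mm10 in the submitters' processing notes, which list Bowtie2 version 2.3.2.2), removed reads of low alignment quality, counted reads per gene with htseq-count and deposited raw counts without normalization. The annotation and strand setting are not given in the sources used here. Every column was matched to a mouse by its labels, and 0 were left out. Total counts of 7612059 to 18073627 per mouse set the precision.

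Tests used edgeR (version 4.0.16, in R version 4.3.3) with TMM, genes with a mean normalized count above 10, quasi-likelihood test, Benjamini-Hochberg adjustment over all genes, threshold 0.05. The study used DESeq2 with the same limits. WT time points were fitted over 20 mice, comparisons with BATKO over 30, temperature over 16 and diet over 13. Standard errors came from the F statistic. Alternatives were DESeq2 (version 1.42.0), RLE factors, no filter, a mean count above 50, only the groups compared, all 30 mice, each mouse left out and, added after the values were seen, skeletal muscle markers as a covariate. The code was tested on simulated counts. Members and gene lists were chosen with earlier results of these data known. Named genes were the 6 members, from the lists, genes among the 2 called genes of largest change upward and the 2 downward, and the 3 genes most like each member. Motifs were counted in RefSeq promoter windows, and gene positions came from GENCODE.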

Additional observations from a re-analysis of the deposited data

Results flagged for a closer look

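Deptor and Sesn3 were singled out because their 24 h responses to TH differed between WT and BATKO mice by the interaction test, by -1.29 for Deptor and 0.63 for Sesn3 on the log2 scale. In WT mice Deptor went from 322 to 805 CPM on average, and in BATKO mice from 318 to 325 CPM. Sesn3 went from 27.5 to 13.6 CPM in WT mice and from 13.5 to 10.3 CPM in BATKO mice. BATKO mice thus had a lower Sesn3 level with PTU alone, in a comparison where genotype and a possible difference in library preparation cannot be told apart.

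A single mouse stood far from the others in 2 of the 72 combinations of gene and group searched, where chance gives about 1 in 20, or 3.6 in all. Ddit4 was at 9.59 CPM in mouse 10 of the BATKO group 24 h after TH, against 4.40 to 5.22 CPM in the others, with a gap of 0.842 of the range. In the same group, Sesn1 was at 11.2 CPM in mouse 8 against 7.83 to 8.43 CPM, with a gap of 0.824 of the range.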

How the results depend on the processing

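No log2 change that was called in either fit reversed its direction. Of all log2 changes of members, 3 h included, the sign changed in 62 of 1032 when 1 mouse was left out and in 6 of 697 with other settings, in each case for values called in neither fit, for example for Sesn1 at 24 h (-0.28 to 0.10). Of the single values of members, 936 of the fits that left out 1 mouse kept their side of the threshold, 42 lost a call and 6 gained one, and with other settings 634 kept it, 15 lost a call and 7 gained one. The number of members called moved by over 1.5 times in the following cases. It was 0 from 6 to 12 h with all 30 mice, where 270 of all genes were called (384 in the main fit). For the difference between the 24 h responses it was 1 without a filter and 1 with only the groups compared. It was 2 in BATKO mice in the cold with DESeq2, 2 in CTRL mice on HFD without a filter, and 1 in BATKO mice on HFD with DESeq2 and 1 without a filter. With the muscle covariate, it was 1 at 12 h, 0 from 6 to 12 h, 1 from 12 to 24 h and 1 for the difference between the 24 h responses. The number of all genes called moved too. With the covariate it was 2616 at 12 h (3346 in the main fit), 28 from 6 to 12 h (384), 396 from 12 to 24 h (1480) and 1560 for the difference (1740). Without a filter it was 1476 for the difference, and 1280 in CTRL and 336 in BATKO mice on HFD (509 and 9). With only the groups compared it was 1348 for the difference. The causes were not tested. Leaving out 1 mouse gave 1 to 2 members at 6 h, 3 to 5 at 12 h, 2 to 3 at 24 h, 0 to 1 from 6 to 12 h, 1 to 2 for the difference between responses, 2 to 3 in CTRL mice in the cold, 1 to 2 in BATKO mice in the cold and 0 to 1 in CTRL mice on HFD. It gave 2 in every fit from 12 to 24 h, 3 for BATKO against WT with PTU, and 0 for the other comparisons. At 3 h, the log2 change of Ddit4l was -1.76 with the muscle covariate, and -2.73 without it. No paired analysis was possible because a number names 1 mouse only, also where CTRL or WT and BATKO groups happen to hold the same one. At the lowest counts, 4 reads for Ddit4l and 16 for Ddit4, counting error adds to the spread between mice.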
